A study of Homo sapiens with 6 samples.

Results

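A set of 10 genes that make, break down, or control polyamines was examined in RNA-Seq data from TC28a2 cells, an immortalized human chondrocyte line, treated with the class I HDAC inhibitor mocetinostat. They were *SAT1*, *SAT2*, *SMOX*, *PAOX*, *ODC1*, *AMD1*, *SRM*, *OAZ1*, *OAZ2*, and *AZIN1*, 10 of the 60623 genes in the count table, and each was found by its gene symbol. The genes were chosen by their role in the pathway, with results of these data in view, among them the fold change of *SAT1* between mocetinostat and DMSO, so the treatment effects on the 10 genes are given as a description without p-values. The groups were cells given 2 μM mocetinostat for 24 hours and cells given its solvent DMSO for 24 hours, with 3 samples per group. All samples came from the same line, and the study's text describes the samples as independent experiments. TC28a2 cells carry an immortalizing transgene and are a single line, so the samples represent neither different donors nor unmodified chondrocytes.

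Mocetinostat samples were sequenced less deeply, with 1619344 to 5089542 counts against 4873426 to 11031132 with DMSO. *SOX9*, the master transcription factor of chondrocytes, had 301 to 1129 counts in every sample, whereas the cartilage collagen gene *COL9A1* was at 0 in DMSO replicate 1 and mocetinostat replicate 2. The 12 chondrocyte markers together held 122 to 145 CPM, the counts scaled to a fixed library size with TMM factors, with DMSO and 266 to 309 CPM with mocetinostat. *SOX9* made up most of these sums, with a mean of 106 CPM with DMSO and 180 CPM with mocetinostat. With DMSO the next highest marker was *HAPLN1* at a mean of 5.30 CPM, and *COL2A1* was at 2.20 CPM. The 8 markers of other cell types together held 4.57 to 8.33 CPM with DMSO and 36.5 to 45.9 CPM with mocetinostat. Of those that could be tested, 6 of 9 chondrocyte markers and 3 of 4 markers of other cell types were called higher, where 20.2% of all genes tested were. The 3 were the epithelial genes *CDH1* (log2 fold change 6.10) and *EPCAM* (4.37) and the endothelial gene *PECAM1* (2.20), and the muscle gene *DES* went from 0, 0, and 1 counts to 26, 3, and 13. The other endothelial gene tested, *CDH5*, was not called (log2 fold change 0.12, SE 0.46) and overlapped between groups. *CD68*, a macrophage marker, had 1, 2, and 1 counts with DMSO and 0 in all mocetinostat samples, which were sequenced less deeply. The 3 called markers of other cell types had DMSO means of 0.258 (*CDH1*), 0.317 (*EPCAM*), and 1.27 CPM (*PECAM1*). They passed the filter on low counts only through their mocetinostat samples. The same held for the chondrocyte markers *SOX5* and *COMP*, at 0.276 and 0.483 CPM with DMSO. Nothing was therefore read from the shares of markers called. The markers named here were chosen after their values were seen. The part of these markers in the results below was not tested.

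Putrescine, spermidine, and spermine are small positively charged amines that bind nucleic acids and are needed for cell growth. Ornithine decarboxylase (*ODC1*) makes putrescine, and spermidine synthase (*SRM*) and spermine synthase (*SMS*) add aminopropyl groups taken from S-adenosylmethionine that *AMD1* has decarboxylated. Going the other way, spermidine/spermine N1-acetyltransferase (*SAT1*) acetylates spermidine and spermine, so that they are exported or oxidized by the peroxisomal oxidase *PAOX*, and spermine oxidase (*SMOX*) converts spermine straight back to spermidine with release of hydrogen peroxide. Antizymes (*OAZ1*, *OAZ2*) bind ornithine decarboxylase and hand it to the proteasome, and antizyme inhibitor (*AZIN1*) draws antizyme away. Several of these proteins are regulated strongly by translation and protein turnover, which counts of mRNA do not measure.

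The start regions of *SAT1*, *SRM*, and *ODC1* are shown because these genes stand for acetylation, the synthesis step that fell, and the synthesis step that rose. Each sequence is the 250 bases before a transcription start, 5′ to 3′ on the gene's strand, from RefSeq on build GRCh38.p14. Windows were used for 8 of 11 genes, the members and *SMS*. Capitals mark each match, on either strand, to 4 short motifs. The E-box was searched as CACGTG. The GC box was searched as GGGCGG. The motif CCAAT was searched under its own name, and the last was the TATA box with the letters TATAAA.
*SAT1*, chrX:23782923-23783172, plus strand: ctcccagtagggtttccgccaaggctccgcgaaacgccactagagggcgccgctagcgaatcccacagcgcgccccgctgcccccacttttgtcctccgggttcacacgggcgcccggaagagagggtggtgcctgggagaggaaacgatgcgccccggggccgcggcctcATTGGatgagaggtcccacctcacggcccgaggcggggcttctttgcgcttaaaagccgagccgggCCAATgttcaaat
*SRM*, chr1:11060019-11060268, minus strand: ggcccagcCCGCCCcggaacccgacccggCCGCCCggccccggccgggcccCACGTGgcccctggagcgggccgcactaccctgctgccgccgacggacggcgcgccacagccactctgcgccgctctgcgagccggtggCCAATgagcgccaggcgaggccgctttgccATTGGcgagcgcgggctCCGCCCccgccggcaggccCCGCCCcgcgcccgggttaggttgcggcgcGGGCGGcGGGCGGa
*ODC1*, chr2:10448328-10448577, minus strand: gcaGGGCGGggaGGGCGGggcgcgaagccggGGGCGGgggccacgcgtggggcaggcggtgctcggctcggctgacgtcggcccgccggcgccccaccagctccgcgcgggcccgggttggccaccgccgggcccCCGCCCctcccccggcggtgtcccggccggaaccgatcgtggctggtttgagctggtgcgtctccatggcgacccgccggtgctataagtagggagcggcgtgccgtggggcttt
The *SAT1* window held 2 CCAAT matches, 79 and 13 bases before the start, and no other match. The *SRM* window held 1 E-box, 6 GC boxes, and 2 CCAAT matches, and the *ODC1* window held 4 GC boxes. A second RefSeq start of *ODC1* had an E-box 29 bases before it. Among 35093 windows of the same length, 6.34% held an E-box, 42.6% a GC box, 32.0% a CCAAT match, and 10.7% a TATAAA match. No matches shared bases, and a match describes letters, not a bound site.

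**Figure D1:**
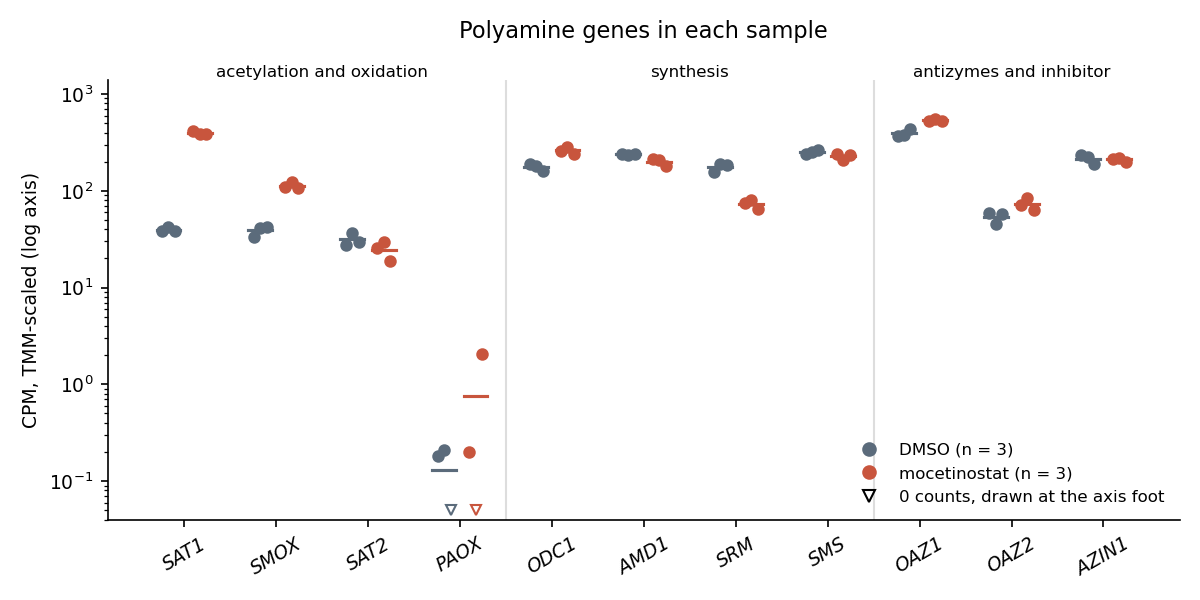
CPM on a log axis for each of the 10 genes and *SMS* in the 3 DMSO and the 3 mocetinostat samples, each point a sample. *SAT1* moved from 38.0 to 42.1 CPM up to 382 to 411 CPM, while *SAT2* and *AZIN1* overlapped between groups and *PAOX* was at or near 0.

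The polyamine genes did not move as a block. A gene was called higher or lower at an adjusted p under 0.05, computed by the quasi-likelihood test of edgeR and adjusted by Benjamini-Hochberg over all 13966 genes tested, together with a change of more than 2-fold. Of the 10 members, 9 passed the filter on low counts, 2 were called higher (*SAT1*, *SMOX*), and 1 was called lower (*SRM*), against 20.2% and 8.18% of all genes tested, or 28.4% in either direction. Since the members were chosen with this comparison in view, nothing was read from these counts. A further 3 were higher and 1 lower past the adjusted p but under 2-fold, where 32.9% and 31.4% of all genes passed the adjusted p at any size. The groups did not overlap in CPM for 5 members that were higher and 2 that were lower, against 33.7% and 32.8% of all genes tested. The median log2 fold change was 0.41 over the 9 members and -0.00210 over all genes tested. *GAPDH* itself was lower after treatment, at 2034 to 2187 CPM against 2953 to 3132 CPM, and scaling each library to *GAPDH* moved the median of all genes to 0.53. Relative to *GAPDH*, *SAT2*, *AMD1*, and *AZIN1* changed sign, to 0.18, 0.27, and 0.50, *SRM* was lower by less than 2-fold at -0.73, and *ODC1* was higher by more than 2-fold at 1.09.

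*SAT1* (ENSG00000130066), the rate-limiting enzyme of polyamine acetylation, lies on chromosome X at 23783173 to 23786210, plus strand (GRCh38, GENCODE 44, as for all genes below). Its level was 38.1, 42.1, and 38.0 CPM in DMSO replicates 1, 2, and 3, and 411, 389, and 382 CPM in mocetinostat replicates 1, 2, and 3. The mocetinostat samples were all far above the DMSO samples and close to each other. The mean went from 39.4 ± 2.32 to 394 ± 15.3 CPM (mean ± SD, n = 3 here and below). The fitted log2 fold change was 3.33 (SE 0.10), a 10.1-fold increase, and 788 of the genes tested had a larger one. Behind these levels stood 421, 202, and 258 counts in the controls and 2074, 627, and 922 in the treated samples. In bulk RNA, a change in the level per cell and a change in the share of cells that express a gene cannot be told apart. Leaving out each sample in turn kept the log2 fold change between 3.28 and 3.34.

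Its paralog *SAT2* (ENSG00000141504), which despite its name acts mainly on other amines than polyamines, did not follow. *SAT2* had 27.8, 36.7, and 29.9 CPM with DMSO and 25.4, 29.7, and 18.6 CPM with mocetinostat, and the groups overlapped. The log2 fold change of *SAT2* was -0.35 (SE 0.17), which did not pass the adjusted p.

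*SMOX* (ENSG00000088826, chromosome 20, 4120980 to 4187747, plus strand) was the second member called higher. It had 33.0, 41.6, and 42.7 CPM with DMSO and 109, 122, and 107 CPM with mocetinostat, so every treated sample was well above every control. The mean moved from 39.1 ± 5.32 to 113 ± 8.07 CPM, a log2 fold change of 1.53 (SE 0.12) or 2.89-fold. The oxidase of acetylated polyamines, *PAOX*, was barely detected in either condition. *PAOX* had 2, 1, and 0 counts in the controls and 1, 0, and 5 counts with mocetinostat, 3 against 6 in sum, a ratio of 5.0 once divided by the summed library totals, with a 95% exact interval of 1.07 to 30.9 that covers counting error only. Of the treated counts 5 came from mocetinostat replicate 3, and 61.0% of the exon bases of *PAOX* are shared with a readthrough gene on the same strand, so its value is uncertain.

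Among the synthesis genes, spermidine synthase fell, the decarboxylase for ornithine rose, and the decarboxylase for S-adenosylmethionine was slightly lower. *SRM* (ENSG00000116649, chromosome 1, 11054584 to 11060020, minus strand), whose start region is printed above, had 155, 191, and 184 CPM with DMSO and 75.5, 81.2, and 65.1 CPM with mocetinostat. Every control was above 150 CPM and every treated sample below 82 CPM. The mean moved from 177 ± 19.1 to 73.9 ± 8.18 CPM, and the log2 fold change was -1.26 (SE 0.11), 2.39-fold lower.

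*ODC1* (ENSG00000115758, chromosome 2, 10439968 to 10448327, minus strand) moved the opposite way, with 191, 178, and 159.9 CPM with DMSO and 257, 287, and 241 CPM with mocetinostat. The groups did not overlap, and the increase of 1.48-fold (log2 0.56, SE 0.09) stayed under the 2-fold threshold. *AMD1* (ENSG00000123505, chromosome 6, 110874770 to 110898879, plus strand) had 243, 236, and 238 CPM with DMSO and 212, 208, and 179 CPM with mocetinostat. All treated samples of *AMD1* were below all controls, by a log2 fold change of -0.26 (SE 0.09) that changed sign under *GAPDH* scaling. *SMS*, the last synthase of the pathway and no member of the 10, had 238, 251, and 267 CPM with DMSO and 239, 208, and 235 CPM with mocetinostat. Its log2 fold change of -0.14 (SE 0.08) did not pass (adjusted p = 0.140).

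Both antizyme genes were modestly higher after treatment, and the antizyme inhibitor gene was at a similar level in both groups. *OAZ1* had 369, 377, and 431 CPM with DMSO and 523, 548, and 532 CPM with mocetinostat, a log2 fold change of 0.44 (SE 0.08). *OAZ2*, the second antizyme, had 59.4, 45.0, and 57.0 CPM with DMSO and 71.8, 83.7, and 63.4 CPM with mocetinostat, a log2 fold change of 0.41 (SE 0.13). Both antizymes were higher in every treated sample than in any control, by 1.36-fold and 1.33-fold. *AZIN1*, which opposes them, had 233, 223, and 190.1 CPM with DMSO and 214, 221, and 199 CPM with mocetinostat, and its groups overlapped. The log2 fold change of *AZIN1* was -0.03 (SE 0.09), and its sign depended on the processing.

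**Figure D2:**
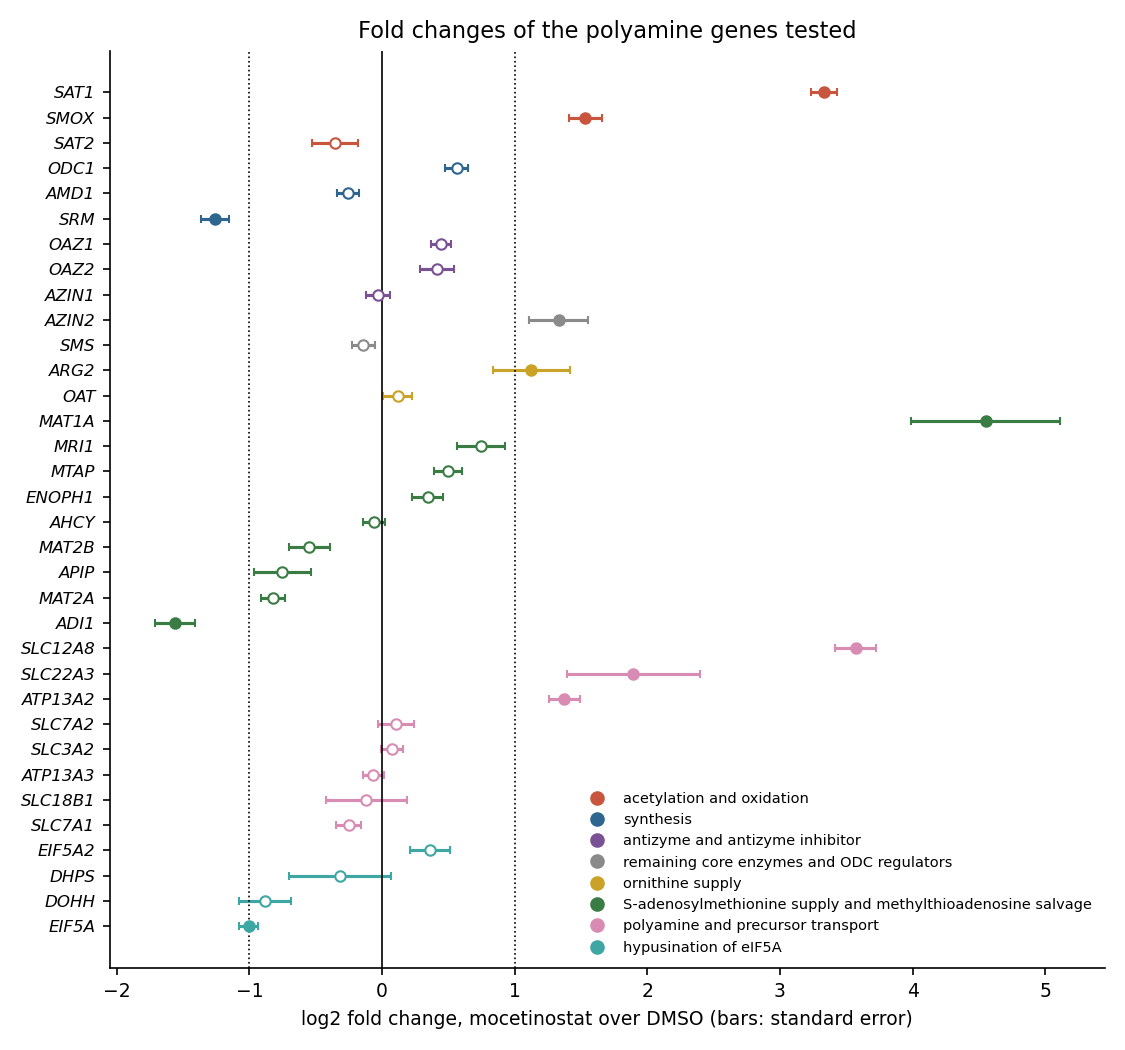
Log2 fold change of mocetinostat over DMSO with its standard error for the members and the wider polyamine list, with dashed lines at a change of 2-fold. Filled points passed both call thresholds; *SAT1* at 3.33, *SLC12A8* at 3.57, and *MAT1A* at 4.55 lie far to the right, and *ADI1* at -1.56 and *SRM* at -1.26 to the left.

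Ratios of counts within a sample do not depend on how libraries are scaled, although a longer transcript gives more reads. The log2 ratio of *SAT1* to *ODC1* counts was -2.32, -2.08, and -2.07 with DMSO and 0.68, 0.44, and 0.67 with mocetinostat. Every control thus had fewer *SAT1* than *ODC1* reads and every treated sample had more. The ratio rose 6.75-fold although *ODC1* rose too. Against *SRM* the contrast was wider, with a mean log2 ratio of -2.16 ± 0.13 with DMSO and 2.42 ± 0.15 with mocetinostat, a 23.9-fold difference. Against *SAT2*, the log2 ratio of *SAT1* went from 0.33 ± 0.13 to 4.03 ± 0.32, or 12.9-fold.

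The ratio of spermine oxidase to spermidine synthase reads was 0.213, 0.218, and 0.233 with DMSO and 1.44, 1.5, and 1.65 with mocetinostat. This 6.92-fold difference, 2.79 on the log2 scale, compares with SDs of 0.07 and 0.10. The *SMS* to *SRM* log2 ratio went from 0.52 ± 0.11 to 1.62 ± 0.25, or 2.15-fold, without overlap. In the control circuit of ornithine decarboxylase the shifts were small. The *OAZ1* to *AZIN1* log2 ratio went from 0.87 ± 0.28 to 1.34 ± 0.07, 1.39-fold, with no overlap between groups. The *OAZ1* to *OAZ2* log2 ratio was 2.87 ± 0.22 with DMSO and 2.88 ± 0.18 with mocetinostat, and the groups overlapped.

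**Figure D3:**
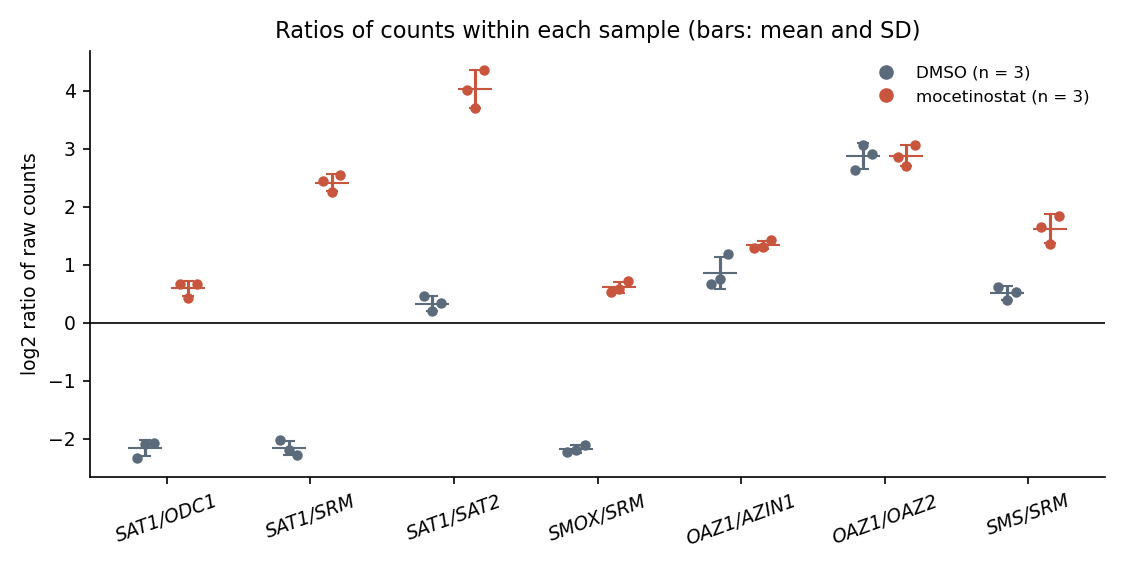
Log2 ratio of the counts of gene pairs within each sample, with points for samples and bars for the mean ± SD of 3 samples per group. The ratios of *SAT1* to *ODC1* and of *SAT1* to *SRM* cross from below 0 to above 0, and that of *OAZ1* to *OAZ2* overlaps between groups.

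Levels of different genes can be set side by side only per length, so CPM was divided by the kilobases of each gene's exons. On this scale *SMS* (118 ± 6.72 CPM per kb) and *OAZ1* (114 ± 9.87) led in DMSO samples, followed by *SRM* (93.2 ± 10.1), *ODC1* (53.3 ± 4.69), and *AZIN1* (35.1 ± 3.66). Below these came *AMD1* (23.4 ± 0.352), *SAT2* (19.1 ± 2.82), *SAT1* (15.9 ± 0.933), *SMOX* (13.3 ± 1.81), *OAZ2* (7.02 ± 1.01), and *PAOX* (0.0577). The neighbours *SMS* and *OAZ1*, and *SAT2* and *SAT1*, overlapped between samples. *SAT1* was therefore among the lower members of the pathway in control cells, with sample values that overlapped those of its paralog.

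With mocetinostat, *SAT1* (159 ± 6.15 CPM per kb) and *OAZ1* (156 ± 3.71) led and overlapped each other. *SMS* (107 ± 7.96), *ODC1* (79.1 ± 7.07), *SRM* (39.0 ± 4.32), *SMOX* (38.3 ± 2.74), and *AZIN1* (34.4 ± 1.85) followed. The lowest were *AMD1* (19.6 ± 1.78), *SAT2* (15 ± 3.40), *OAZ2* (9.51 ± 1.33), and *PAOX* (0.336). *SRM* overlapped both *SMOX* and *AZIN1* in treated cells, and *AMD1* overlapped *SAT2*. The order depended on the length used. With the length of the canonical transcript *OAZ1* led in both groups (342 and 466 CPM per kb), above *SMS* (148) with DMSO and *SAT1* (376) with mocetinostat. *SAT1* moved from rank 8 to rank 1 of 11 genes with exon lengths and from rank 7 to rank 2 with canonical lengths, where it stood at 37.6 CPM per kb with DMSO beside 34.5 for *SAT2*.

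Summed per kilobase, *SAT1* and *SMOX* together stood at 0.163, 0.175, and 0.177 times the level of *ODC1*, *AMD1*, and *SRM* in DMSO samples. In mocetinostat samples the same quotient was 1.46, 1.32, and 1.53. With canonical transcript lengths the quotients were 0.190 to 0.203 and 1.77 to 2.06. Whether the quotient passed 1 in treated cells depended on the genes summed. With *SMS* added to the synthesis genes it was 0.0965 to 0.105 with DMSO and 0.800 to 0.811 with mocetinostat, or 0.126 to 0.135 and 1.18 to 1.22 with canonical lengths. The quotient was higher in every treated sample than in any control in each version. *SAT1* was chosen with its fold change in view, so this direction was largely fixed by the choice and is no independent result. All versions left *SAT2* and *PAOX* out of the acetylation and oxidation side. Within the sum of *ODC1*, *AMD1*, and *SRM* on exon lengths, *SRM* held 54.8% ± 4.05 with DMSO and 28.3% ± 0.668 with mocetinostat. *ODC1* held 31.4% ± 3.46 and 57.5% ± 1.16. These shares depend on the length used. With canonical lengths *AMD1* stood at 69.7 CPM per kb with DMSO and 58.3 with mocetinostat, against 23.4 and 19.6 on exon lengths. With *SMS* in the sum, *SMS* held the most of it on exon lengths in every sample, 39.8% to 42.6% with DMSO and 39.4% to 46.9% with mocetinostat. Also on exon lengths, *SAT1* held 32.9% ± 2.00 of the summed level of *SAT1*, *SAT2*, *SMOX*, and *PAOX* with DMSO and 74.8% ± 2.02 with mocetinostat.

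**Figure D4:**
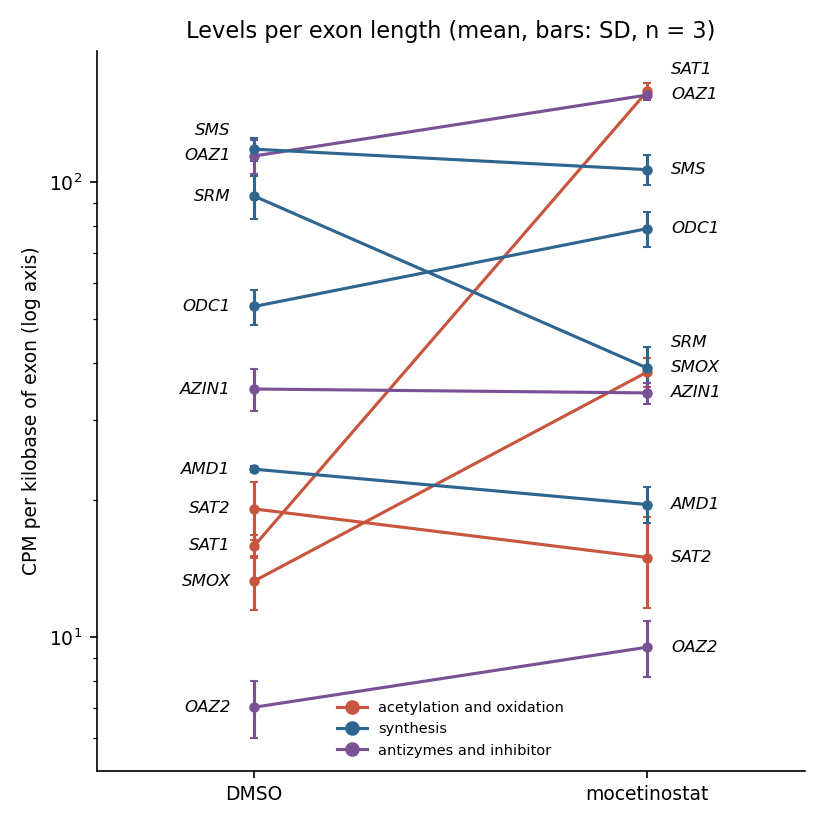
CPM per kilobase of exon on a log axis for 10 polyamine genes (*SMS* added, *PAOX* left out as near 0) in DMSO and mocetinostat, with points for group means and bars for the SD of 3 samples. *SAT1* goes from 15.9 to 159 CPM per kb on average, and *SRM* from 93.2 to 39.0.

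Around this core, a wider list of 33 genes covered the remaining enzymes, ornithine and S-adenosylmethionine supply, transport, and hypusine. Of these, 25 could be tested, 6 were called higher and 2 lower, with a median log2 fold change of 0.08. These are 24% and 8%, close to the shares over all genes tested given above. A further 4 were higher and 5 lower past the adjusted p under 2-fold, and 8 did not pass. The list was chosen with earlier results of these data known, and its adjusted p-values come from edgeR's quasi-likelihood test over all genes.

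Transport held 3 of the 6 genes called higher, out of 8 transport genes tested, 37.5% against 20.2% of all genes tested. This difference was not tested, and nothing was read from it, since *SLC22A3* passed the filter on low counts only through its mocetinostat samples. *SLC12A8*, a cation-chloride cotransporter relative that has been linked to polyamine uptake, had 9.32, 8.54, and 6.34 CPM with DMSO and 97.1, 103, and 92.8 CPM with mocetinostat. It rose 11.9-fold, a log2 fold change of 3.57 (SE 0.15, adjusted p = 8.65e-33), beside 3.33 for *SAT1*. *ATP13A2*, a lysosomal pump that exports polyamines from the lysosome, rose from 52.4 ± 5.84 to 136 ± 23.4 CPM (log2 1.37, SE 0.12, adjusted p = 3.21e-17). *SLC22A3*, an organic cation transporter, rose from low counts, 11, 11, and 7 against 19, 12, and 12 (log2 1.90, SE 0.50, adjusted p = 6.67e-04). Its call was lost with glmTreat, a test against a change of 2-fold (adjusted p = 0.0541). It could not be tested with at least 10 counts in every sample or after thinning to equal depth. The transporters for arginine and related precursors, *SLC7A1*, *SLC7A2*, and *SLC3A2*, were not called and were named after their values were seen.

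Genes that supply and recycle S-adenosylmethionine went in both directions. Of 9 tested, 1 was called higher, 1 lower, 3 each were higher or lower past the adjusted p under 2-fold, and 1 did not pass. Over all genes tested, 20.2% were called higher and 8.18% lower, and 32.9% and 31.4% passed the adjusted p at any size. With so few genes, nothing was read from these counts. *ADI1*, a dioxygenase late in the salvage of methylthioadenosine to methionine, fell from 70.6 ± 6.59 to 23.8 ± 6.04 CPM (log2 -1.56, SE 0.15, adjusted p = 5.17e-15). *MAT1A*, the S-adenosylmethionine synthetase typical of liver, went from 2, 2, and 3 counts in the controls to 43, 11, and 19 with mocetinostat. In sum these were 7 and 73 counts, a ratio of 26.1 once divided by the summed library totals, with a 95% exact interval of 12.0 to 67.2 for counting error only (adjusted p = 5.65e-11). *MAT1A* passed the filter on low counts only through its mocetinostat samples. *MAT2A*, the synthetase found in most tissues, fell from 287 ± 17.5 to 160.3 ± 22.6 CPM (log2 -0.82, adjusted p = 9.84e-13). *MTAP*, which cleaves the methylthioadenosine that the synthases release, was higher by a log2 of 0.50 (adjusted p = 4.01e-05). *MAT2A* and *MTAP* were named after their values were seen.

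Among the remaining regulators of ornithine decarboxylase and the suppliers of ornithine, *AZIN2* and *ARG2* were called higher. *AZIN2*, the second antizyme inhibitor, rose from 8.75 ± 0.473 to 21.8 ± 3.61 CPM (log2 1.33, SE 0.22, adjusted p = 3.20e-07), beside -0.03 for *AZIN1*. *ARG2*, mitochondrial arginase, had 53, 48, and 32 counts in the controls and 75, 15, and 36 with mocetinostat (log2 1.13, SE 0.29, adjusted p = 4.70e-04), and its CPM values overlapped between groups. The *ARG2* value was under 2-fold without DMSO replicate 1 (0.91), DMSO replicate 3 (0.94), or mocetinostat replicate 1 (0.99), with no filter (0.88), and after thinning to equal depth (0.78), and the call was also lost with glmTreat. On the opposite strand *VTI1B* covers 39.6% of its exon bases.

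Spermidine is also the source of hypusine, a modified lysine that is made only in the translation factor eIF5A. *EIF5A* had 999, 1065, and 1083 CPM with DMSO and 506, 540.4, and 523 CPM with mocetinostat, with no overlap. The log2 fold change of -1.01 (SE 0.07, adjusted p = 2.06e-21) sat at the 2-fold threshold, and it ranged from -1.26 to -0.48 over 15 alternatives with the call lost in 7, among them the fit without mocetinostat replicate 1 (-0.99). *DOHH*, which completes hypusine, fell from 25.8 ± 0.881 to 14.3 ± 2.21 CPM (log2 -0.88, adjusted p = 7.26e-05). *DHPS*, which starts it, had a log2 fold change of -0.32 (SE 0.38) that did not pass (adjusted p = 0.478), and 38.8% of its exon bases are shared with other genes. *DOHH* and *DHPS* were named after their values were seen.

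A list of 9 transcription factors or cofactors that have been described at *SAT1*, *ODC1*, *SRM*, or *AMD1* was examined as well, and 8 could be tested. None was called higher by edgeR or DESeq2, while 1 had an unadjusted p under 0.05 and was higher, and 2 were called lower, against 20.2% of all genes tested called higher and 8.18% lower. *PMF1*, a partner of NRF2 described at a polyamine-responsive element of *SAT1*, fell from 107, 39, and 40 counts to 11, 4, and 8 (log2 -1.63, SE 0.39, adjusted p = 1.94e-04). A readthrough gene shares 23.3% of the exon bases of *PMF1*. *NFE2L2*, which encodes NRF2, had 99.3 ± 9.04 and 101 ± 9.53 CPM (log2 0.03, SE 0.11, adjusted p = 0.823). *MYC*, an activator of *ODC1*, was lower by less than 2-fold, at 196 ± 5.93 and 163 ± 19.7 CPM (log2 -0.26, SE 0.09, adjusted p = 0.0110), with the opposite sign (0.27) under *GAPDH* scaling. The gene that was higher, named after its values were seen, was *CEBPB*, from 196 ± 22.7 to 391 ± 45.0 CPM (log2 0.99, SE 0.09, adjusted p = 8.22e-17), at the 2-fold threshold.

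The change of *SAT1* was also set against its chromosomal surroundings. Of 14 other genes within 500 kb, 6 could be tested. None of the 6 was called higher by edgeR and 1 was called lower, against 20.2% and 8.18% of all genes tested. At an unadjusted p under 0.05, 4 were higher. Past the adjusted p 3 were higher, against 32.9% of all genes tested. With so few genes, nothing was read from these counts. DESeq2, which tested 8, called 1 higher, *PTCHD1*, named after its values were seen, with 2, 0, and 1 counts in the controls and 4, 3, and 6 with mocetinostat. The nearest tested gene, *ACOT9*, a mitochondrial thioesterase 16.7 kb away, had a log2 fold change of 0.25 (adjusted p = 0.0591). *APOO* at 47.1 kb (0.45, adjusted p = 0.0225), *PRDX4* at 96.8 kb (0.35, adjusted p = 0.00337), and *KLHL15* at 198 kb (0.59, adjusted p = 5.97e-04) were higher by less than 2-fold. *EIF2S3* at 269 kb had 0.01 (adjusted p = 0.948), and *ZFX*, a zinc finger transcription factor at 363 kb, fell from 166, 149.5, and 148 CPM in the controls to 44.6, 35.3, and 29.0 CPM (-2.04, adjusted p = 1.35e-24). Under *GAPDH* scaling *KLHL15* was at 1.13, past the call thresholds, and *SAT1* at 3.86.

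**Figure D5:**
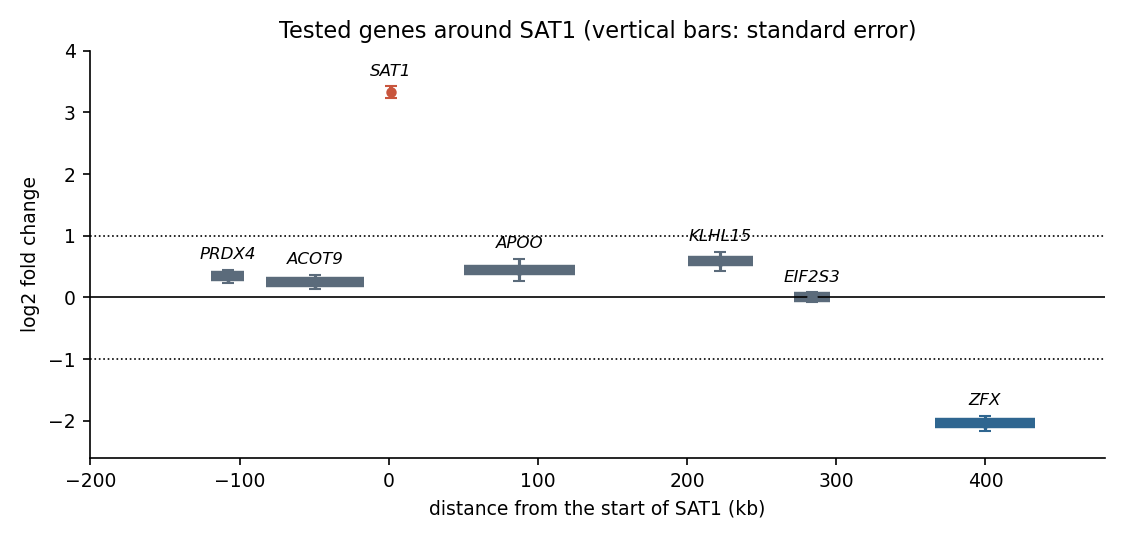
Log2 fold change with standard error of *SAT1* and of the 6 tested genes within 500 kb against distance from *SAT1* in kb. *SAT1* stands at 3.33 and *ZFX* at -2.04, while the other 5 lie between 0.01 and 0.59.

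The genes whose pattern over the 6 samples was most like that of *SAT1* were sought by the root mean square difference of centred log2 CPM, among 10261 genes tested with a mean of at least 10 CPM. The nearest were *CPM*, the gene for carboxypeptidase M (0.0697), *HSPA2*, a testis-enriched heat shock protein (0.0729), *IGFBP3*, which binds insulin-like growth factors (0.0984), *SRCIN1*, a Src kinase inhibitor (0.110), and *LIPG*, endothelial lipase (0.119). The median over all genes compared was 1.73. Their log2 fold changes were 3.32, 3.32, 3.27, 3.33, and 3.17, a likeness to *SAT1* that the choice itself fixed.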

How the data were processed

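RNA-Seq was performed on TC28a2 cells treated with DMSO or 2 μM mocetinostat for 24 hours (3 samples per group). The authors deposited whole raw counts of reads per gene. Per the study's methods, total RNA libraries were depleted of rRNA sequences after PCR and sequenced as single reads, which were trimmed, filtered for rRNA, aligned to GRCh38 with STAR 2.6.1d, and counted with featureCounts 1.6.4. Strand and multi-gene settings are not given in the sources used here, so overlapping genes are uncertain.

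TMM factors, filterByExpr (minimum count 10), and quasi-likelihood tests of treatment were computed with edgeR 4.0.16 in R 4.3.3 over all genes, with Benjamini-Hochberg adjustment. Calls needed a change of more than 1 on the log2 scale in either direction with an adjusted p under 0.05. The biological coefficient of variation was 9.30%. Within groups, pairs of samples differed by more than sampling noise (chi-square per degree of freedom 1.93 to 7.95). Member and gene lists were chosen with earlier results of these data known. Named genes were the 10 members, *SMS*, *EIF5A*, *MYC*, *NFE2L2*, called genes of the wider and regulator lists, tested *SAT1* neighbours, the 5 nearest patterns, and *GAPDH*. Others are marked. The values of 1 called regulator gene are not reported here. Positions and exon lengths came from GENCODE 44 (99.5% of genes matched). CPM used TMM factors, and no pseudocount. Alternatives were RLE, library size, *GAPDH* scaling, DESeq2 1.42.0, no filter, at least 10 counts per sample, glmTreat, a replicate block, thinning, leaving out each sample, canonical transcript lengths, and *SMS* added to the synthesis sum, the last 2 chosen after seeing the data. Of these fits, only the reported one, DESeq2, no filter, glmTreat, and the replicate block were also run on simulated counts. No molecular identifiers were used, so intervals cover counting error only.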

Additional observations from a re-analysis of the deposited data

How the results depend on the processing

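The calls of *SAT1* and *SMOX* held under all 15 alternatives, with log2 fold changes of 3.08 to 3.86 and 1.28 to 2.06. *SRM* ranged from -1.51 to -0.73 and lost its call under *GAPDH* scaling alone, where no member was called lower (0 against 1). That scaling also reversed *SAT2* (0.18), *AMD1* (0.27), *AZIN1* (0.50), *SMS* (0.39), and *MYC* (0.27). *AZIN1* was also reversed with at least 10 counts in every sample (0.0479), after thinning (0.0784), and when single samples were left out (-0.14 to 0.0166). *NFE2L2* was reversed with DESeq2 (-0.00785), no filter (-0.22), and single samples left out (-0.0741 to 0.0747), *ACOT9* with no filter (-0.000943), and *EIF2S3* with DESeq2 (-0.0302), no filter (-0.25), and single samples left out (-0.0561 to 0.0289). The causes were not tested. Of the wider genes, 6 were called higher in the reported fit, 3 with glmTreat, and 4 to 8 under the other alternatives. The 2 called lower became 1 with RLE, library size, *GAPDH* scaling, at least 10 counts, glmTreat, or thinning, 5 with no filter, and 1 to 2 when samples were left out (1 without mocetinostat replicate 1). Regulators called higher went from 0 to 1 with RLE, library size, *GAPDH* scaling, no filter, at least 10 counts, or thinning. They were 0 to 1 when samples were left out (1 without DMSO replicate 3 or mocetinostat replicate 3). The gene called need not be the same under each alternative. Regulators called lower went from 2 to 1 with *GAPDH* scaling, at least 10 counts, or thinning, and to 0 with glmTreat. The *SMOX* to *SRM* log2 ratio difference was 2.65 after thinning against 2.79. Over all genes, calls higher and lower were 2827 and 1142, and 4425 and 284 with *GAPDH* scaling, 3201 and 2120 with no filter, 1620 and 704 with at least 10 counts, and 2069 and 465 with glmTreat. Mocetinostat samples had fewer reads, and low-count genes such as *PAOX* could not be measured well.

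Same-numbered samples had correlations of deviations of 0.0357, 0.0226, and -0.0393, and those of different number had -0.076 to 0.058. No sign of pairing was seen, but with 3 samples per group this check cannot tell whether samples were paired by experiment. With the replicate number as a block, 2 members were called higher and 1 lower, 6 and 2 wider genes, and 0 and 2 regulators. *SAT1* was 3.33, *SMOX* 1.54, and *SRM* -1.24 under the block, and 2798 and 1133 of all genes were called.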

Other observations

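Several polyamine genes had too few reads to be tested, and those given here were named after their values were seen. *AOC1*, the secreted diamine oxidase that breaks down putrescine, had 0, 0, and 0 counts in the controls and 5, 2, and 1 in the treated samples. *OAZ3*, the antizyme of the testis, had 13, 7, and 5 and 5, 0, and 0 counts, and *SATL1*, a relative of *SAT1*, had 2, 0, and 3 and 4, 0, and 1. *ARG1*, the liver arginase, was at 0 in all 6 samples, which together held 31957262 counts and allow a level of up to 0.0939 CPM for counting error only. *MYCN* had 0, 0, and 0 and 9, 0, and 1 counts. A noncoding gene that lies 0.217 kb from *SAT1*, AC131011.1, had 1, 0, and 1 counts in the controls and 6, 1, and 3 in the treated samples.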
